A study of Arabis alpina with 27 samples.

Results

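The return of *A. alpina* plants to warmth after 12 weeks of cold is described here from 6 of the 27 RNA-seq libraries of the series. They are the 3 libraries of stems harvested 5 days after the move back to the glasshouse (12w+5dLD) and the 3 libraries of stems harvested at the end of 12 weeks at 4°C (12w), chosen by their labels alone. All plants were of the accession Pajares and grew for 8 weeks in a long-day (LD) glasshouse, with 16 h of light and 20°C by day and 18°C by night. The 12w plants then spent 12 weeks in a chamber at 4°C with the same day length, and the 12w+5dLD plants spent the same time there plus 5 days back in the glasshouse. Stems of plants that never saw cold (0w, 3 libraries) are given beside them for their levels, and the returns from 16 and 21 weeks of cold (6 libraries each) are used to see where the return from 12 weeks differs. Each library was made from stem pieces of about 2 cm, internodes 9 to 13 without axillary buds, pooled from 10 plants. The return changes temperature and place together, and the 12w+5dLD plants were also 5 days older. The hour of harvest is not given in the sources used here.

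Plants that stay in the cold build up a store of protective proteins, soluble sugars, proline and unsaturated lipids, a state called cold acclimation that is set up in part by the CBF transcription factors. In warmth this state is lost within days, a process called deacclimation, while growth resumes. In a stem, growth after elongation is largely the making of wood and fibre walls, in which cellulose and xylan are laid down and then sealed with lignin.

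The 6 libraries held 16654945 to 20126316 counts each, and 19337 of 21641 genes had enough counts in the 27 libraries to be tested. Levels are given in CPM, counts scaled to a common library total, in the order of replicates 1, 2 and 3 of each group. Folds are 12w+5dLD over 12w on the log2 scale, followed by a standard error (SE) derived from the test described next. This SE is the absolute log2 fold change divided by the square root of the test's F value. It is not the spread of the libraries shown. A gene was called at a Benjamini-Hochberg adjusted p under 0.05 in edgeR's quasi-likelihood test and a change of at least 2-fold. In 12w+5dLD stems 1116 genes were called higher, 5.77% of those tested, and 943 were called lower, 4.88%, together 10.6%. The median log2 fold change was 1.55 among the higher genes, -1.54 among the lower genes and 0.01 among all tested genes. Since every library is a whole stem piece, fewer cells of a type and less RNA per cell cannot be told apart for any gene below. Pearson correlations of log2 CPM were 0.889 to 0.913 among the 12w+5dLD libraries, 0.904 to 0.911 among the 12w libraries and 0.819 to 0.861 between them. Exact zeros also occurred within groups, since 622 of 13637 genes with a mean of at least 10 CPM in either group had a 0 in 1 or 2 of that group's 3 libraries, so a 0 beside high values is given here as listed. In 198 called genes a count of at least 100 was identical to that of the neighbouring gene in 1 or more of the 6 libraries, so the pair cannot be told apart there. Of the genes named below this holds for *GSTF11* in all 6, and for *RAB18*, *PHS2*, *PRR7*, *RVE1*, *GASA1*, *MYB53* and the homologs of AT1G64430 and AT2G20815 in fewer.

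**Figure D1:**
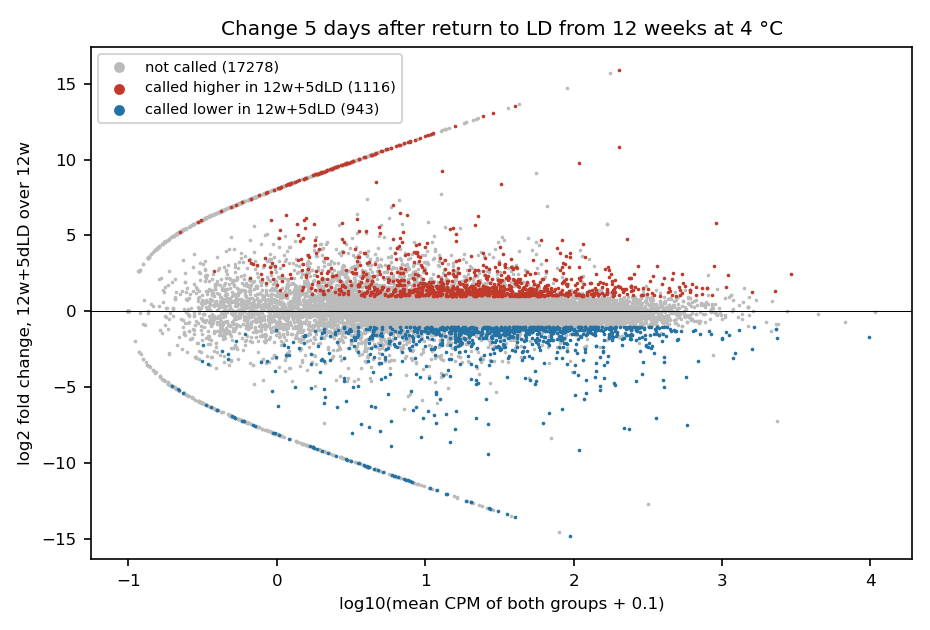
Each point is a tested gene, with the log10 of its mean CPM over both groups plus 0.1 on the x axis and its log2 fold change, 12w+5dLD over 12w, on the y axis. The 1116 genes called higher are red, the 943 called lower are blue, and the 2 curved arms hold genes with 0 counts in all 3 libraries of one group.

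Genes were then read in 47 lists of known function, written by *A. thaliana* locus, of which 690 loci were tested here. Some lists had all or nearly all called members higher, among them secondary wall, lignin, jasmonate, photosynthesis, heat shock, auxin synthesis and conjugation, and aliphatic glucosinolate. Others had all called members lower, among them cold-regulated genes, circadian clock, low oxygen, starch breakdown, and adventitious and lateral root genes. Further lists had few calls or calls in both directions. A list's count is read against the 5.77% of all tested genes called higher and the 4.88% called lower.

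**Figure D2:**
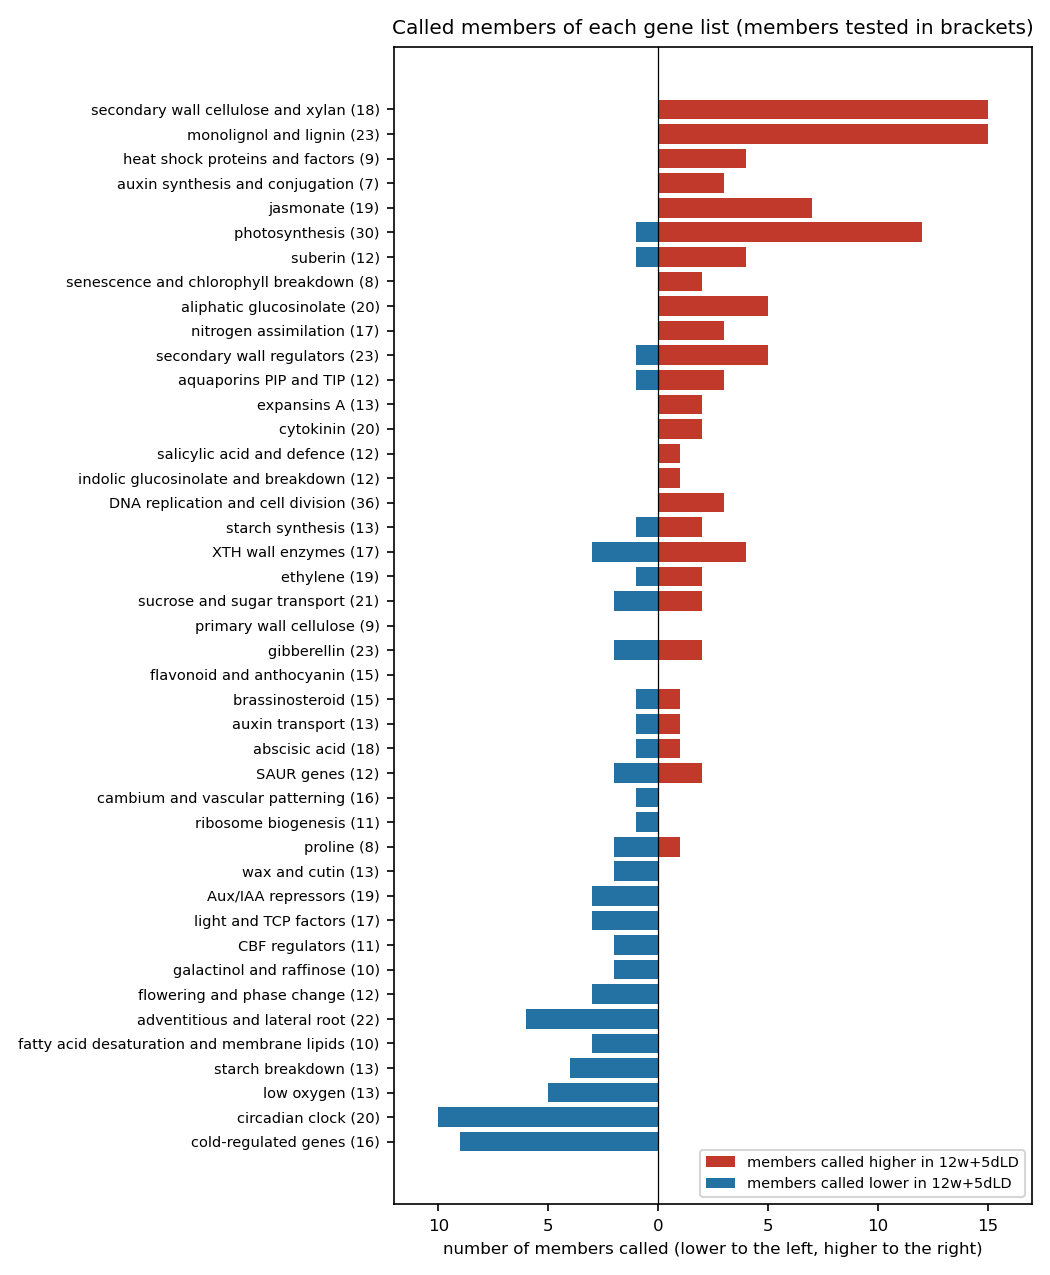
For each gene list, the number of members called higher in 12w+5dLD stems runs to the right in red and the number called lower runs to the left in blue, with the number tested in brackets. The secondary wall list (15 higher of 18) stands at the top and the cold-regulated list (9 lower of 16) at the bottom.

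Cold-regulated transcripts were the list with the largest share of lower genes after 5 days of warmth. Of 16 tested cold-regulated genes 9 were called lower and none higher, with a list median of -1.12, against 0.01 for all genes. *RD29A* (Aa_G396870), a hydrophilic protein gene that CBF factors switch on, had 442, 471 and 537 CPM in 12w+5dLD stems, against 2871, 2708 and 2533 CPM in 12w stems (log2 fold change -2.48 ± 0.36 SE, adjusted p = 7.5e-05). All 3 libraries of 12w+5dLD lay below all 3 of 12w, and also below the 0w libraries, which held 742 to 1015 CPM. Over all tested genes, the libraries of 12w+5dLD and 12w did not overlap at 44.4%. *ERD10* (Aa_G622600), which encodes a dehydrin that shields membranes and proteins, had 251, 325 and 376 CPM in 12w+5dLD stems, against 2187, 2100.3 and 2082 CPM in 12w stems (log2 fold change -2.74 ± 0.31 SE, adjusted p = 9.4e-06). Its 0w level was 1769.6 to 1994 CPM, close to that of 12w stems, so 12w+5dLD was the low group of the 3. The related genes *COR27* and *COR28*, which join cold and clock regulation, were at or near 0 after the return. *COR27* (Aa_G595780) had 0 CPM in all 3 libraries of 12w+5dLD stems, against 233, 140.4 and 191 CPM in 12w stems, a level at least 1190-fold lower when 3 counts per library are taken as the floor (adjusted p = 0.00081). *COR28* (Aa_G616700) had 0, 0 and 0.202 CPM in 12w+5dLD stems, against 31.3, 25.4 and 30.5 CPM in 12w stems (log2 fold change -8.59 ± 1.06 SE, adjusted p = 2.6e-05). The glycine-rich RNA-binding protein genes *GRP8* (Aa_G352050) and *GRP7* (Aa_G666740), which are clock outputs as well as cold-induced, were lower too. *GRP8* had 90.4, 111 and 109 CPM in 12w+5dLD stems, against 586, 519 and 579.6 CPM in 12w stems (log2 fold change -2.44 ± 0.35 SE, adjusted p = 6.4e-05), with no overlap between the groups. *GRP7* had 279, 281 and 195 CPM in 12w+5dLD stems, against 2847, 921 and 2602 CPM in 12w stems (log2 fold change -3.08 ± 0.72 SE, adjusted p = 0.0033), where the second 12w library lay well below the other two. Smaller drops were called for *COR413-PM1* (-1.15 ± 0.14), *KIN2* (-1.09 ± 0.34) and *RAB18* (-1.45 ± 0.49), and among the 7 members not called the dehydrin gene *ERD14* had 1569, 1640.5 and 1796 CPM in 12w+5dLD stems, against 2974, 2889 and 3041 CPM in 12w stems (log2 fold change -0.83 ± 0.16 SE, adjusted p = 0.00093), short of 2-fold.

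Few regulators of this set were called. Of 11 tested CBF regulators 2 were called lower and the median was -0.36. *CBF3* (Aa_G29810), one of the factors that start cold acclimation, had 0.207, 0.616 and 0.404 CPM in 12w+5dLD stems, against 16.5, 20.2 and 9.59 CPM in 12w stems (log2 fold change -5.22 ± 0.89 SE, adjusted p = 0.00027). *CBF4*, its drought-linked relative, had 0 CPM in all 3 libraries of 12w+5dLD stems, against 0.329, 2.34 and 1 CPM in 12w stems, at least 7.74-fold lower with an adjusted p of 0.012. *ICE1*, an upstream activator, had 24.1, 23.5 and 24.9 CPM in 12w+5dLD stems, against 24.9, 27.4 and 28.6 CPM in 12w stems and was not called (log2 fold change -0.16 ± 0.13 SE, adjusted p = 0.41). Transcripts of *CBF1* and *CBF2* were not among the tested genes.

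Sugars, proline and lipids are the other stores of a cold-acclimated plant, and most genes called here that act in their synthesis were lower. Galactinol synthase is the first step of raffinose synthesis, and *GOLS3* (Aa_G394720) had 5.79, 4.59 and 5.75 CPM in 12w+5dLD stems, against 779, 716 and 629 CPM in 12w stems (log2 fold change -7.04 ± 1.60 SE, adjusted p = 0.0028). *GOLS1* had 50.4, 68.7 and 72 CPM in 12w+5dLD stems, against 81.7, 92.5 and 122 CPM in 12w stems and was not called (log2 fold change -0.63 ± 0.59 SE, adjusted p = 0.49), and of the 10 tested galactinol and raffinose genes only *AGAL1*, an alpha-galactosidase gene, was called besides *GOLS3* (log2 fold change -4.52 ± 1.24 SE, adjusted p = 0.011). Both genes of the committed step of proline synthesis fell. *P5CS1* (Aa_G38090) had 236, 214 and 172 CPM in 12w+5dLD stems, against 456, 548 and 535 CPM in 12w stems (log2 fold change -1.30 ± 0.30 SE, adjusted p = 0.0028). *P5CS2* (Aa_G213640) had 131, 134 and 118 CPM in 12w+5dLD stems, against 430.4, 407 and 442 CPM in 12w stems (log2 fold change -1.74 ± 0.16 SE, adjusted p = 1.8e-06). *PRODH2*, which acts in proline breakdown, had 2.27, 2.75 and 2.32 CPM in 12w+5dLD stems, against 0 CPM in all 3 libraries of 12w stems, at least 14.5-fold higher (adjusted p = 0.045). Of 10 tested genes for fatty acid desaturation and membrane lipids 3 were lower and none higher. *FAD2* (Aa_G5280), the desaturase of the endoplasmic reticulum, had 517, 421 and 435 CPM in 12w+5dLD stems, against 1719.7, 1309 and 1587 CPM in 12w stems (log2 fold change -1.75 ± 0.34 SE, adjusted p = 0.00076). *ADS2* (Aa_G167510), a desaturase needed for chilling tolerance in *A. thaliana*, had 64.5, 70.8 and 66 CPM in 12w+5dLD stems, against 256, 265 and 233 CPM in 12w stems (log2 fold change -1.91 ± 0.18 SE, adjusted p = 2.1e-06), and *SLD1*, a sphingolipid desaturase gene, had a log2 fold change of -1.57 ± 0.22. Of the calls of this group, the following were lost on leaving out 1 library or changing the scaling, filter or test, *PRODH2* without any 1 of the 6 libraries (adjusted p 0.064 to 0.11), *KIN2* without 12w+5dLD replicate 2 or 3 or 12w replicate 1 or 3 (adjusted p 0.053 to 0.1) and *RAB18* without 12w+5dLD replicate 1, 2 or 3 or 12w replicate 1 or 3 (adjusted p 0.071 to 0.12). *AGAL1* was not called in a fit of only the 6 libraries (adjusted p = 0.066).

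Transcripts of the low-oxygen response were lower as well, 5 of 13 called and none higher. *ADH1* (Aa_G215640), alcohol dehydrogenase of fermentation, had 91.2, 53.6 and 76.1 CPM in 12w+5dLD stems, against 833, 752 and 640.5 CPM in 12w stems (log2 fold change -3.33 ± 0.34 SE, adjusted p = 3.8e-06). *PDC2* (Aa_G542670), pyruvate decarboxylase of the step before it, had 264, 344 and 229 CPM in 12w+5dLD stems, against 618, 774 and 680.3 CPM in 12w stems (log2 fold change -1.31 ± 0.22 SE, adjusted p = 0.00025). *HRE1* (Aa_G199210), an ethylene response factor that acts in low oxygen, had 39.6, 43.7 and 43.5 CPM in 12w+5dLD stems, against 295, 251 and 278 CPM in 12w stems (log2 fold change -2.70 ± 0.31 SE, adjusted p = 8.9e-06). For *ADH1* the 12w+5dLD libraries also lay below the 0w libraries (325 to 346 CPM), and for *HRE1* they lay at the low end of them (39.5 to 71 CPM). *PCO1* (-1.12 ± 0.29) and *LBD41* (-1.08 ± 0.24), 2 further genes of the core response, completed the called set, and *HB1*, a non-symbiotic haemoglobin gene, had 109, 48.4 and 46 CPM in 12w+5dLD stems, against 79.7, 83.7 and 63.5 CPM in 12w stems and was not called. Among the low-oxygen calls, the following were lost on leaving out 1 library or changing the scaling, filter or test, *PCO1* without 12w+5dLD replicate 3 (log2 fold change -0.84) and *LBD41* without 12w+5dLD replicate 3 or 12w replicate 1 (log2 fold change -0.96 to -0.86). Without 12w+5dLD replicate 3 the list had 3 lower members.

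**Figure D3:**
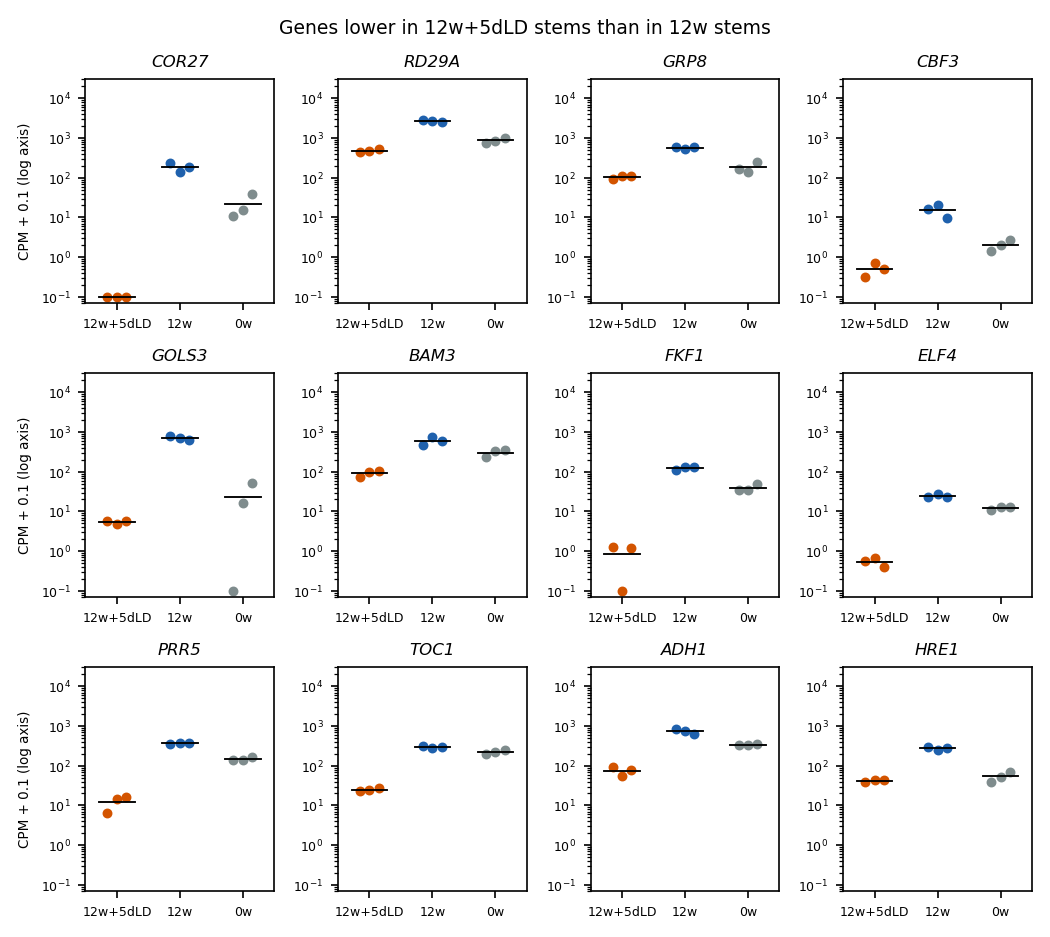
CPM plus 0.1 on a log axis in each library of 12w+5dLD (orange), 12w (blue) and 0w (grey) stems for 12 genes that were called lower, with a bar at the group mean. In each panel the 3 orange points lie below the 3 blue ones, and *COR27* is at 0 in all 3 of the 12w+5dLD libraries.

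The circadian clock list held the largest share of lower genes after the cold-regulated list, 10 of 20 tested with none higher and a median of -1.20. The clock of plants runs as a chain of repressors, with *LHY* in the morning, the *PRR* genes through the day and the evening complex of *ELF4*, *ELF3* and *LUX* at dusk. *FKF1* (Aa_G28730), a blue-light receptor gene that times flowering, had 1.14, 0 and 1.11 CPM in 12w+5dLD stems, against 111, 132 and 129 CPM in 12w stems (log2 fold change -7.34 ± 1.65 SE, adjusted p = 0.0026). *ELF4* (Aa_G224250) had 0.465, 0.56 and 0.303 CPM in 12w+5dLD stems, against 22.5, 27.7 and 23.6 CPM in 12w stems (log2 fold change -5.78 ± 0.88 SE, adjusted p = 0.0001). *PRR5* (Aa_G45380) had 6.51, 14.1 and 16.6 CPM in 12w+5dLD stems, against 350.1, 378 and 370.2 CPM in 12w stems (log2 fold change -4.88 ± 0.64 SE, adjusted p = 3e-05). *TOC1* (Aa_G448830) had 23.1, 24.6 and 27.4 CPM in 12w+5dLD stems, against 307, 277 and 305 CPM in 12w stems (log2 fold change -3.57 ± 0.64 SE, adjusted p = 0.00041). In all 4 genes the 3 libraries of 12w+5dLD also lay below the 3 of 0w. *LUX*, *BOA*, *GI*, *PRR7*, *PRR9* and *RVE1* were the other called members, with log2 fold changes of -3.44, -5.09, -1.92, -1.33, -1.07 and -4.33. *LHY*, the morning gene, had 244, 107 and 124 CPM in 12w+5dLD stems, against 149, 116 and 148 CPM in 12w stems and was not called (log2 fold change 0.20 ± 0.40 SE, adjusted p = 0.79), and *ELF3* had 52.6, 63.2 and 110.4 CPM in 12w+5dLD stems, against 47.3, 54.9 and 61.2 CPM in 12w stems (log2 fold change 0.47 ± 0.22 SE, adjusted p = 0.13). Since the hour of harvest is not given, a shift of the daily rhythm and a change of its level cannot be told apart. Of the clock calls, that of *PRR9* was lost without 12w replicate 3 (log2 fold change -0.98). *RVE1* and *GI* were not called in a fit of only the 6 libraries (adjusted p = 0.052 to 0.076).

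Called genes of light signalling and flowering were all lower. *PIF5* (Aa_G262260), a growth-promoting bHLH factor under clock control, had 25.4, 24.9 and 22.9 CPM in 12w+5dLD stems, against 264, 229 and 287 CPM in 12w stems (log2 fold change -3.41 ± 0.64 SE, adjusted p = 0.00063). *TCP14* had 88.3, 86.8 and 75.2 CPM in 12w+5dLD stems, against 278, 226 and 283 CPM in 12w stems (log2 fold change -1.65 ± 0.22 SE, adjusted p = 3e-05) and *TCP2* a log2 fold change of -1.80 ± 0.19, and these 3 were the called members among 17 tested light and TCP factors. Of 12 tested flowering genes 3 were lower and none higher. *SOC1* (Aa_G15970), a MADS-box integrator of flowering signals, had 35.9, 32.4 and 39.8 CPM in 12w+5dLD stems, against 82.3, 109 and 121 CPM in 12w stems (log2 fold change -1.53 ± 0.38 SE, adjusted p = 0.0053). Its 12w+5dLD libraries still lay above the 0w libraries (5.37 to 15.2 CPM). *SVP* (Aa_G311490), a MADS-box repressor of flowering, had 157, 147 and 155 CPM in 12w+5dLD stems, against 365, 261 and 299.6 CPM in 12w stems (log2 fold change -1.01 ± 0.16 SE, adjusted p = 0.00015), which is just past 2-fold. *FUL*, a MADS-box gene of the floral transition, had 0.155, 0.28 and 0.303 CPM in 12w+5dLD stems, against 2.52, 1.68 and 1.38 CPM in 12w stems (log2 fold change -2.89 ± 0.65 SE, adjusted p = 0.0027). *FLC*, *FT* and *LFY* were not among the tested genes. Among the calls of flowering and light genes, that of *SVP* was lost without 12w+5dLD replicate 2 or 12w replicate 1 or with DESeq2 or with DESeq2's size factors or with upper-quartile scaling or with no filter or with a stricter filter (log2 fold change -0.999 to -0.86).

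Starch breakdown was lower at 4 steps and higher at none of 13 tested. *BAM3* (Aa_G16660), the beta-amylase of leaf starch that cold induces in *A. thaliana*, had 74.2, 98.6 and 104 CPM in 12w+5dLD stems, against 473, 739 and 607 CPM in 12w stems (log2 fold change -2.71 ± 0.30 SE, adjusted p = 6.2e-06). *GWD1* (Aa_G43230), which phosphorylates starch to open it for breakdown, had 193, 221 and 221 CPM in 12w+5dLD stems, against 447, 450.3 and 395 CPM in 12w stems (log2 fold change -1.02 ± 0.09 SE, adjusted p = 8.4e-07). *LDA*, a debranching enzyme gene, had 29.3, 31.3 and 27.6 CPM in 12w+5dLD stems, against 77.1, 72.7 and 71.2 CPM in 12w stems (log2 fold change -1.33 ± 0.26 SE, adjusted p = 0.00082), and *PHS2*, a cytosolic phosphorylase gene, had 57.8, 82.7 and 127 CPM in 12w+5dLD stems, against 208, 291 and 273 CPM in 12w stems (log2 fold change -1.52 ± 0.32 SE, adjusted p = 0.0015). Starch synthesis was mixed, with 2 of 13 higher and 1 lower. *GBSS1* (Aa_G376040), granule-bound starch synthase, had 149, 174 and 148 CPM in 12w+5dLD stems, against 41.3, 51.8 and 46.5 CPM in 12w stems (log2 fold change 1.76 ± 0.24 SE, adjusted p = 3.5e-05). *SS4*, which starts new granules, had a log2 fold change of 1.81 ± 0.38, and *SS1*, which extends short chains, had -1.01 ± 0.23.

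Of 21 tested genes of sucrose and sugar transport 2 were called higher and 2 lower, with a list median of 0. Over all tested genes 5.77% were called higher and 4.88% lower, so this list is not read as changed. *SPS1F* (Aa_G642610), a sucrose phosphate synthase gene, had 55.1, 88.9 and 87.8 CPM in 12w+5dLD stems, against 248, 307 and 295 CPM in 12w stems (log2 fold change -1.88 ± 0.32 SE, adjusted p = 0.00025). *STP13* (Aa_G112610), a hexose importer gene, had 13.4, 15.5 and 19.5 CPM in 12w+5dLD stems, against 119, 164 and 126 CPM in 12w stems (log2 fold change -3.08 ± 0.49 SE, adjusted p = 0.00016). *SUC1* (Aa_G344060), a sucrose importer gene, went the other way, with 114, 205 and 214 CPM in 12w+5dLD stems, against 36.6, 39.4 and 40.2 CPM in 12w stems (log2 fold change 2.20 ± 0.26 SE, adjusted p = 1e-05), and the 12w+5dLD values spanned the 0w range of 139 to 175 CPM. *ERDL6*, which exports sugar from the vacuole, had a log2 fold change of 1.09 ± 0.23. Nitrogen assimilation had 3 higher genes of 17 tested and none lower. *GLN2* (Aa_G452230), the plastid glutamine synthetase, had 336, 339 and 372 CPM in 12w+5dLD stems, against 125, 148 and 139 CPM in 12w stems (log2 fold change 1.34 ± 0.18 SE, adjusted p = 3.4e-05), and *GLN1;1* (Aa_G350120), a cytosolic one, had 329, 391 and 453 CPM in 12w+5dLD stems, against 116, 148 and 112 CPM in 12w stems (log2 fold change 1.64 ± 0.23 SE, adjusted p = 5.6e-05). The third, *GLN1;2*, rests on 1 library, with 0, 0 and 8.48 CPM in 12w+5dLD stems, against 0 CPM in all 3 libraries of 12w stems, and reads of these similar genes may be split between them. Of the calls of starch, sugar and nitrogen genes, the following were lost on leaving out 1 library or changing the scaling, filter or test, *GWD1* without 12w+5dLD replicate 1 or 12w replicate 1 or 2 or with upper-quartile scaling (log2 fold change -0.99 to -0.96), *SS1* without 12w+5dLD replicate 1 or 12w replicate 2 or with DESeq2 or with DESeq2's size factors or with upper-quartile scaling (log2 fold change -0.99 to -0.90), *ERDL6* without 12w replicate 1 (log2 fold change 0.94) and *GLN1;2* without 12w+5dLD replicate 3 or 12w replicate 1, 2 or 3 (adjusted p 0.095 to 1).

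Photosynthesis genes were called mainly in the higher direction, 12 of 30 higher and 1 lower, with a median of 0.93. *PETE1* (Aa_G87870), one of a pair of plastocyanin genes of electron transport, had 48.1, 50.8 and 52.2 CPM in 12w+5dLD stems, against 12.8, 11.7 and 14.9 CPM in 12w stems (log2 fold change 1.94 ± 0.25 SE, adjusted p = 2.4e-05). *PRK* (Aa_G302490), phosphoribulokinase of the Calvin cycle, had 269, 263 and 309 CPM in 12w+5dLD stems, against 62.1, 74.4 and 109 CPM in 12w stems (log2 fold change 1.78 ± 0.30 SE, adjusted p = 0.00025). *PETE2* had 274, 280 and 294 CPM in 12w+5dLD stems, against 83.4, 86.2 and 115 CPM in 12w stems (log2 fold change 1.57 ± 0.23 SE, adjusted p = 8.1e-05). The 0w libraries held 46 to 58.2 CPM of *PETE1*, 195 to 233 CPM of *PRK* and 324 to 374 CPM of *PETE2*, so *PRK* lay above, *PETE2* below and *PETE1* within its level before cold. *RBCS3B*, a gene of the small Rubisco subunit, was the fourth by fold, with 1100.4, 1172 and 1250 CPM in 12w+5dLD stems, against 230.4, 589.5 and 405 CPM in 12w stems (log2 fold change 1.52 ± 0.55 SE, adjusted p = 0.048), and the other 8 higher members ran from *LHCA3* (1.05 ± 0.16), an antenna gene of photosystem I, up to *GAPA* (1.44 ± 0.34), a Calvin cycle gene. The exception was *LHCB1.3* (Aa_G248920), a gene of the main light-harvesting antenna, with 4858, 4694 and 4399.8 CPM in 12w+5dLD stems, against 15074, 12835 and 16765 CPM in 12w stems (log2 fold change -1.68 ± 0.32 SE, adjusted p = 0.00074) and 5095 to 5262 CPM at 0w. It alone held most of the list's counts in the cold, so the list's summed level was 18034 to 18325 CPM in 12w+5dLD libraries and 20403 to 26319 CPM in 12w libraries. Without it the sum was 13176 to 13925 CPM in 12w+5dLD and 7560.3 to 9555 CPM in 12w stems, and 11687 to 14294 CPM in 0w stems. The *LHCB1* copies are nearly alike, and counts may be split among them. Among the photosynthesis calls, the following were lost on leaving out 1 library or changing the scaling, filter or test, *RBCS3B* without 12w+5dLD replicate 1, 2 or 3 or 12w replicate 1 or 3 or with no filter (adjusted p 0.051 to 0.18), *SBPASE* without 12w+5dLD replicate 3 or 12w replicate 1 (log2 fold change 0.90 to 0.92), *RCA* without 12w+5dLD replicate 3 or 12w replicate 1 or 2 (log2 fold change 0.96 to 0.999), *PSAK* without 12w replicate 1 (log2 fold change 0.95) and *LHCA3* without 12w replicate 1 (log2 fold change 0.98). *SBPASE* was not called in a fit of only the 6 libraries (adjusted p = 0.061). Without 12w replicate 1 the list had 7 higher members.

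Genes that build secondary walls were the list with the largest share of higher genes, 15 of 18 tested with none lower and a median of 2.63. Secondary walls thicken the water-conducting cells and fibres of wood. *CESA8* (Aa_G150190), one of the 3 cellulose synthases specific to these walls, had 72.3, 181 and 269.9 CPM in 12w+5dLD stems, against 0, 23.4 and 20 CPM in 12w stems (log2 fold change 3.59 ± 0.95 SE, adjusted p = 0.0084). *CESA7* (Aa_G264900) had 26.9, 205 and 258 CPM in 12w+5dLD stems, against 0, 36 and 29.9 CPM in 12w stems (log2 fold change 2.89 ± 1.00 SE, adjusted p = 0.038), and *CESA4* (Aa_G89560), the remaining one, had 0, 232 and 393 CPM in 12w+5dLD stems, against 0, 0 and 38 CPM in 12w stems and was not called (log2 fold change 4.04 ± 2.39 SE, adjusted p = 0.23). *FLA11* (Aa_G451910), which encodes a fasciclin-domain arabinogalactan protein of wood fibres, had 48.1, 103 and 141 CPM in 12w+5dLD stems, against 5.26, 12 and 10.7 CPM in 12w stems (log2 fold change 3.39 ± 0.54 SE, adjusted p = 0.00015). *GAUT12* (also known as *IRX8*), which acts in xylan synthesis, had 24.1, 67.7 and 90 CPM in 12w+5dLD stems, against 0, 9.58 and 0 CPM in 12w stems (log2 fold change 4.23 ± 1.11 SE, adjusted p = 0.0077), and *COBL4*, which acts in cellulose assembly, had 35.9, 65.2 and 68.5 CPM in 12w+5dLD stems, against 0, 10 and 9.27 CPM in 12w stems (log2 fold change 3.13 ± 0.80 SE, adjusted p = 0.0066). The xylan genes *IRX9* (2.68 ± 0.43), *IRX15L* (2.67 ± 0.31), *GUX2* (2.44 ± 0.45), *ESK1* (1.89 ± 0.39), *PARVUS* (1.55 ± 0.33) and *GXMT1* (1.42 ± 0.28) were all called higher. For every called member except *GUX2* all 12w+5dLD libraries stayed below all 0w libraries, for example against 513 to 646 CPM for *CESA8* and 279.8 to 455 CPM for *FLA11* at 0w. The list's summed level was 774 to 2716 CPM in 12w+5dLD libraries, 203 to 430.4 CPM in 12w libraries and 4989.6 to 6796 CPM in 0w libraries.

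Within the 12w+5dLD group replicate 1 held the lowest value of all 15 called members. In the 12w group replicate 1 was also the lowest library for these genes, except for *GUX2* and for *GAUT12*, where replicate 3 was at 0 too. The gap was wide for the xylem proteases of dying vessel cells, *XCP1* (Aa_G548450) with 18.4, 198 and 218 CPM in 12w+5dLD stems, against 9.09, 45.6 and 21.6 CPM in 12w stems (log2 fold change 2.51 ± 0.63 SE, adjusted p = 0.0056) and *XCP2* with 9.57, 114 and 124 CPM in 12w+5dLD stems, against 4, 24.5 and 12.7 CPM in 12w stems (log2 fold change 2.59 ± 0.68 SE, adjusted p = 0.0076), where, as for *CESA7*, 12w+5dLD replicate 1 lay within the 12w range and above 12w replicate 1. *FLA12* and *CTL2*, a chitinase-like gene of wall assembly, were the remaining called members (2.00 ± 0.40 and 2.77 ± 0.43). Of the secondary wall calls, that of *CESA7* was lost without 12w+5dLD replicate 2 or 3 or 12w replicate 3 (adjusted p 0.073 to 0.12). *CESA8*, *GAUT12*, *COBL4*, *CESA7*, *XCP1* and *XCP2* were not called in a fit of only the 6 libraries (adjusted p = 0.14 to 0.29). The list had 9 higher members in a fit of only the 6 libraries.

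The factors that switch these walls on followed in part, with 5 of 23 called higher and 1 lower. *NST1* (Aa_G462260), a NAC master switch of fibre walls, had 11.8, 14.8 and 25.2 CPM in 12w+5dLD stems, against 0, 0 and 2.44 CPM in 12w stems (log2 fold change 4.42 ± 1.08 SE, adjusted p = 0.0047). *MYB63* (Aa_G80410), an activator of lignin genes, had 26.7, 32.8 and 30.5 CPM in 12w+5dLD stems, against 5.09, 9.37 and 7.46 CPM in 12w stems (log2 fold change 2.04 ± 0.26 SE, adjusted p = 2.6e-05). *SND2* had 11.1, 17.9 and 23.3 CPM in 12w+5dLD stems, against 2.41, 6.27 and 5.2 CPM in 12w stems (log2 fold change 1.91 ± 0.36 SE, adjusted p = 0.00058) and *MYB85* 3.41, 8.07 and 9.94 CPM in 12w+5dLD stems, against 0.931, 1.38 and 0 CPM in 12w stems (log2 fold change 3.20 ± 1.17 SE, adjusted p = 0.049). *SND3* (Aa_G498700), also a NAC factor of these walls, was lower, with 36.5, 37.2 and 38.8 CPM in 12w+5dLD stems, against 81.6, 94.8 and 90.3 CPM in 12w stems (log2 fold change -1.25 ± 0.23 SE, adjusted p = 0.00049). *VNI2*, a NAC repressor of vessel formation, had a log2 fold change of 1.09 ± 0.22. The master gene *MYB46* had 3, 5.27 and 5.4 CPM in 12w+5dLD stems, against 0, 0.968 and 1.32 CPM in 12w stems and was not called (log2 fold change 2.57 ± 1.06 SE, adjusted p = 0.08). Among the calls of these factors, the following were lost on leaving out 1 library or changing the scaling, filter or test, *MYB85* without 12w+5dLD replicate 2 or 3 or 12w replicate 1, 2 or 3 or with no filter (adjusted p 0.053 to 0.11) and *VNI2* without 12w+5dLD replicate 1 (log2 fold change 0.91). *NST1* and *MYB85* were not called in a fit of only the 6 libraries (adjusted p = 0.14 to 0.15). DESeq2 called 9 members higher and a fit of only the 6 libraries 3.

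Lignin genes were higher from the entry step to the joining of units in the wall, 15 of 23 tested with none lower and a median of 1.78. *PAL1* (Aa_G570390), the entry enzyme, had 520.1, 722 and 774 CPM in 12w+5dLD stems, against 121, 201 and 113 CPM in 12w stems (log2 fold change 2.21 ± 0.27 SE, adjusted p = 1.6e-05). *C4H* (Aa_G552340), the next step, had 614, 805 and 853 CPM in 12w+5dLD stems, against 257, 325 and 269.7 CPM in 12w stems (log2 fold change 1.42 ± 0.16 SE, adjusted p = 1e-05). *COMT1* (Aa_G578820), which methylates the ring of the lignin units, had 819, 1139.7 and 949.7 CPM in 12w+5dLD stems, against 238, 385 and 218 CPM in 12w stems (log2 fold change 1.79 ± 0.31 SE, adjusted p = 0.0003). The remaining steps called were *PAL4* (2.18 ± 0.24), *PAL2* (1.59 ± 0.18), *4CL2* (1.16 ± 0.15), *C3H1* (1.39 ± 0.18), *CCOAOMT1* (1.78 ± 0.23), *F5H1* (1.06 ± 0.30) and *CAD5* (1.52 ± 0.21). Enzymes that join the units in the wall had higher folds. *LAC4* (Aa_G150750), a laccase of lignin polymerisation, had 57.8, 168 and 229 CPM in 12w+5dLD stems, against 5.75, 27 and 17.8 CPM in 12w stems (log2 fold change 3.17 ± 0.59 SE, adjusted p = 0.00057). *PRX64* (Aa_G604600), a peroxidase gene, had 16.6, 25.5 and 49.6 CPM in 12w+5dLD stems, against 1.42, 2.24 and 0 CPM in 12w stems (log2 fold change 4.62 ± 0.97 SE, adjusted p = 0.0015), and *PRX52* (Aa_G170520), another, had 1742, 1741 and 1240.2 CPM in 12w+5dLD stems, against 209.8, 313 and 68.9 CPM in 12w stems (log2 fold change 3.00 ± 0.70 SE, adjusted p = 0.0035). *PRX66* and *LAC17*, of the same kinds, had log2 fold changes of 5.50 ± 1.88 and 3.21 ± 1.16. Against the 0w libraries, 12w+5dLD stems overlapped for *PAL1* (741 to 1029 CPM) and *COMT1* (782 to 981 CPM), lay below for *C4H* (871 to 1111 CPM), *LAC4* (375 to 500.2 CPM) and *PRX64* (281 to 299 CPM) and lay above for *PRX52* (585 to 805 CPM). Of the lignin calls, the following were lost on leaving out 1 library or changing the scaling, filter or test, *PRX66* without 12w+5dLD replicate 2 or 3 or 12w replicate 1 or 3 (adjusted p 0.072 to 0.11), *LAC17* without 12w+5dLD replicate 2 or 3 or 12w replicate 1 or 3 or with no filter (adjusted p 0.051 to 0.12) and *F5H1* without 12w+5dLD replicate 2 or 12w replicate 1 (log2 fold change 0.96 to 0.99, adjusted p 0.044 to 0.062). *PRX64*, *PRX66* and *LAC17* were not called in a fit of only the 6 libraries (adjusted p = 0.056 to 0.21).

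Markers of other stem tissues were given beside the wall genes. None of the 6 phloem markers tested was called, and their summed level was 303 to 405 CPM in 12w+5dLD libraries and 360.1 to 425 CPM in 12w libraries. None of the 4 epidermis markers was called, with sums of 11.9 to 16.9 CPM in 12w+5dLD and 18.4 to 20.1 CPM in 12w libraries, and *PDF2* was at 0 in all 6. Of 16 tested cambium and vascular patterning genes only *KNAT1* (Aa_G90040), a homeobox gene of stem and meristem, was called, with 152, 160.3 and 102 CPM in 12w+5dLD stems, against 359, 273 and 315 CPM in 12w stems (log2 fold change -1.19 ± 0.20 SE, adjusted p = 0.00029). *PXY*, the receptor that keeps the cambium, had 181, 286 and 308 CPM in 12w+5dLD stems, against 266, 314 and 235 CPM in 12w stems (log2 fold change -0.07 ± 0.15 SE, adjusted p = 0.79). Whether the share of xylem cells in the stem pieces moved with the wall genes was not tested.

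**Figure D4:**
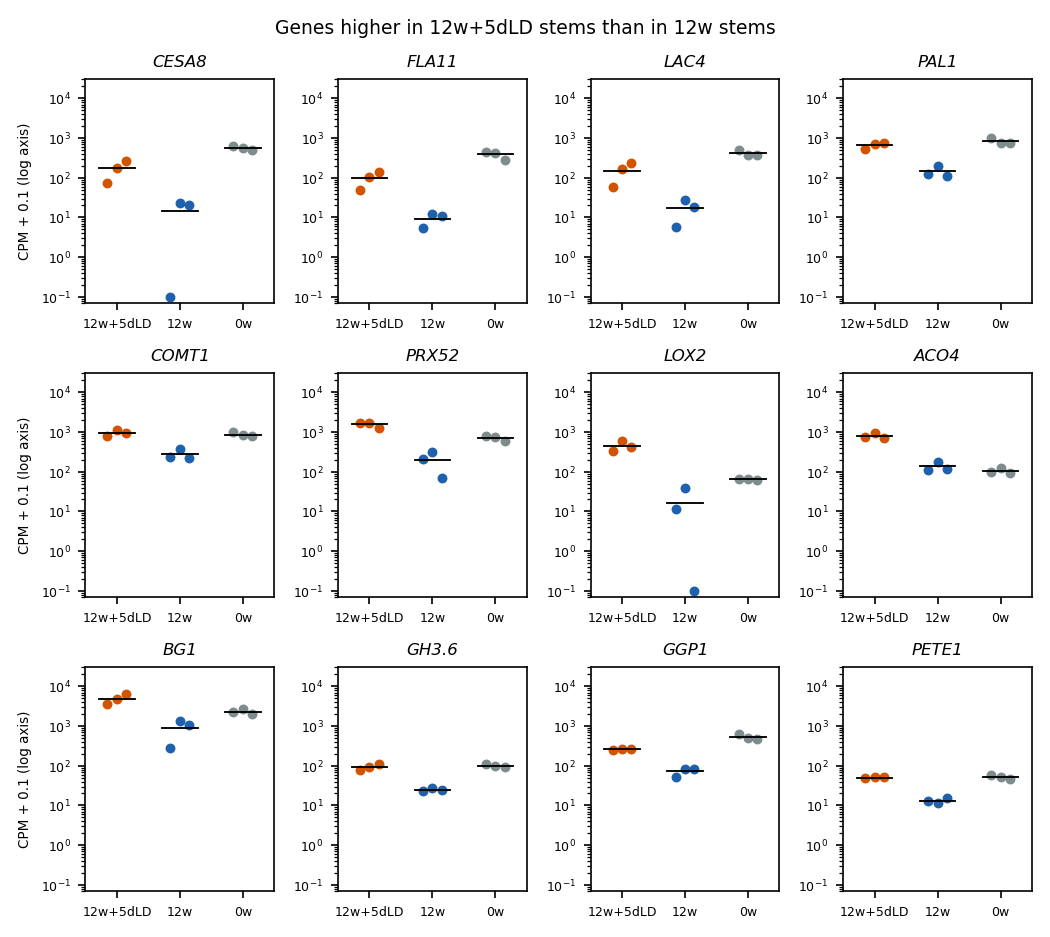
CPM plus 0.1 on a log axis in each library of 12w+5dLD (orange), 12w (blue) and 0w (grey) stems for 12 genes that were called higher, with a bar at the group mean. In each panel the 3 orange points lie above the 3 blue ones, and wall genes such as *CESA8* stay below their grey 0w points.

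Genes that loosen and extend the primary wall were called in both directions. *EXPA6* (Aa_G412140), an expansin, had 47.5, 83 and 59.8 CPM in 12w+5dLD stems, against 18.7, 24.6 and 17.1 CPM in 12w stems (log2 fold change 1.66 ± 0.35 SE, adjusted p = 0.0018), and *EXPA10* had 30.1, 32.4 and 32.9 CPM in 12w+5dLD stems, against 8.98, 14.7 and 6.27 CPM in 12w stems (log2 fold change 1.67 ± 0.40 SE, adjusted p = 0.0038), the 2 called of 13 expansins. Of 17 tested XTH genes, which encode enzymes that join or cut xyloglucan, 4 were higher and 3 lower. *XTH31* had 87.5, 91.2 and 117 CPM in 12w+5dLD stems, against 19.8, 41.1 and 32.5 CPM in 12w stems (log2 fold change 1.66 ± 0.36 SE, adjusted p = 0.0018), and *XTH24*, *XTH32* and *XTH7* had log2 fold changes of 1.36, 1.27 and 1.01. *XTH16* (Aa_G92480) had 20.1, 22.8 and 18.5 CPM in 12w+5dLD stems, against 80.2, 62 and 80.9 CPM in 12w stems (log2 fold change -1.86 ± 0.19 SE, adjusted p = 3.8e-06). *XTH20* had 0 CPM in all 3 libraries of 12w+5dLD stems, against 9.64, 15.4 and 13.8 CPM in 12w stems, at least 81.9-fold lower (adjusted p = 0.00066). *XTH15* had 0 CPM in all 3 libraries of 12w+5dLD stems, against 5.97, 3.51 and 0 CPM in 12w stems (adjusted p = 0.0083). Its level was at least 20-fold below the 12w mean, but 12w replicate 3 was at 0 as well. None of the 9 primary wall cellulose genes was called, and *CESA2* had the largest change among them, with 736, 834 and 774 CPM in 12w+5dLD stems, against 371, 473 and 426 CPM in 12w stems (log2 fold change 0.88 ± 0.12 SE, adjusted p = 4.7e-05). Among 12 aquaporins, which let water through membranes, *PIP1;5* (Aa_G439790) had 50.4, 83.1 and 85.9 CPM in 12w+5dLD stems, against 21.3, 32.6 and 24.9 CPM in 12w stems (log2 fold change 1.48 ± 0.22 SE, adjusted p = 9.6e-05), *PIP2;2* and *PIP2;1* had log2 fold changes of 2.15 ± 0.53 and 1.01 ± 0.19, and *PIP2;6* was lower (-1.03 ± 0.19). Among the calls of these genes, the following were lost on leaving out 1 library or changing the scaling, filter or test, *XTH7* without 12w+5dLD replicate 3 or 12w replicate 1 (log2 fold change 0.94 to 0.95), *PIP2;2* without 12w+5dLD replicate 3 (adjusted p 0.053), *PIP2;1* without 12w+5dLD replicate 3 or 12w replicate 1 (log2 fold change 0.81 to 0.89) and *PIP2;6* without 12w+5dLD replicate 2 or 3 or 12w replicate 1 or 3 or with upper-quartile scaling (log2 fold change -0.996 to -0.90).

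Jasmonate genes formed the hormone list with the most higher members, 7 of 19 with none lower and a median of 1.13. Jasmonate is made from membrane lipids, and its JAZ repressors are also its early targets. *LOX2* (Aa_G49590), the lipoxygenase of the first step, had 341, 581 and 412 CPM in 12w+5dLD stems, against 11.3, 38.2 and 0 CPM in 12w stems (log2 fold change 4.75 ± 1.05 SE, adjusted p = 0.0023), and its 12w+5dLD libraries also lay above the 0w libraries (61.3 to 66.1 CPM). *AOC3* (Aa_G409710), allene oxide cyclase, had 53.7, 79.4 and 75.5 CPM in 12w+5dLD stems, against 15.2, 30.4 and 23.2 CPM in 12w stems (log2 fold change 1.60 ± 0.31 SE, adjusted p = 0.00085). *MYC2* (Aa_G16560), the main transcription factor of the response, had 281, 347 and 317 CPM in 12w+5dLD stems, against 102, 169 and 152 CPM in 12w stems (log2 fold change 1.16 ± 0.31 SE, adjusted p = 0.0096). The repressor genes *JAZ10* (3.43 ± 1.25), *JAZ9* (1.40 ± 0.36), *JAZ1* (1.21 ± 0.36) and *JAZ2* (1.15 ± 0.19) were higher, and *JAZ10* had 11.6, 12.5 and 10.2 CPM in 12w+5dLD stems, against 0.329, 2.39 and 0.439 CPM in 12w stems. Of the jasmonate calls, the following were lost on leaving out 1 library or changing the scaling, filter or test, *JAZ10* without 12w+5dLD replicate 1, 2 or 3 or 12w replicate 1 or 3 or 21w+5dLD replicate 3 or with no filter (adjusted p 0.051 to 0.16), *JAZ1* without 12w+5dLD replicate 3 or 12w replicate 1 (adjusted p 0.065 to 0.066) and *MYC2* without 12w replicate 1 (adjusted p 0.057). *LOX2* was not called in a fit of only the 6 libraries (adjusted p = 0.1). Without 12w replicate 1 the list had 4 higher members.

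Auxin genes were called at several steps. The transport list had 1 higher and 1 lower of 13 tested genes, and the SAUR list 2 and 2 of 12. Over all tested genes 5.77% were called higher and 4.88% lower, so neither of these 2 lists is read as changed. All 3 called members of 7 tested auxin synthesis and conjugation genes were higher. *GH3.6* (Aa_G432960), which conjugates auxin to amino acids, had 76.6, 93.8 and 113 CPM in 12w+5dLD stems, against 22.4, 27.4 and 23.9 CPM in 12w stems (log2 fold change 1.94 ± 0.36 SE, adjusted p = 0.00054). *GH3.9* (Aa_G12820) had 12.9, 11.7 and 22 CPM in 12w+5dLD stems, against 0 CPM in all 3 libraries of 12w stems, at least 92-fold higher (adjusted p = 0.0085), and *DAO2*, an auxin oxidase gene, had 18.2, 14.8 and 16.8 CPM in 12w+5dLD stems, against 5.42, 4.74 and 6.02 CPM in 12w stems (log2 fold change 1.62 ± 0.45 SE, adjusted p = 0.011). Among 19 tested Aux/IAA repressors, whose genes are early targets of auxin, 3 were lower and none higher. *IAA1* (Aa_G479690) had 5.12, 6.44 and 4.14 CPM in 12w+5dLD stems, against 29, 25.7 and 24.4 CPM in 12w stems (log2 fold change -2.33 ± 0.34 SE, adjusted p = 7.3e-05), *IAA3* had 3.41, 3.14 and 3.33 CPM in 12w+5dLD stems, against 19.1, 22.8 and 12.9 CPM in 12w stems (log2 fold change -2.47 ± 0.42 SE, adjusted p = 0.00026), and *IAA2* had a log2 fold change of -1.06 ± 0.24. In transport *PIN4* (Aa_G278020), an exporter gene, had 72.9, 73.3 and 72.4 CPM in 12w+5dLD stems, against 27.3, 41.6 and 26.7 CPM in 12w stems (log2 fold change 1.19 ± 0.22 SE, adjusted p = 0.00054), and *LAX2* (Aa_G36610), an importer gene, had 48, 58 and 70.9 CPM in 12w+5dLD stems, against 144, 122 and 127 CPM in 12w stems (log2 fold change -1.15 ± 0.17 SE, adjusted p = 6.1e-05). Of 12 SAUR genes 2 were higher (*SAUR6* and *SAUR32*, 2.17 ± 0.63 and 1.14 ± 0.32) and 2 lower (*SAUR78* and *SAUR9*, -1.27 ± 0.34 and -2.04 ± 0.52). Among the auxin calls, the following were lost on leaving out 1 library or changing the scaling, filter or test, *IAA2* without 12w replicate 2 (log2 fold change -0.97), *SAUR6* without 12w+5dLD replicate 1 or 12w replicate 1 (adjusted p 0.068 to 0.074) and *SAUR32* without 12w replicate 3 (adjusted p 0.059). *SAUR78* and *SAUR9* were not called in a fit of only the 6 libraries (adjusted p = 0.066 to 0.084).

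In the other hormone lists few genes were called. Higher and lower members were 2 and 1 of 19 for ethylene and 1 and 1 of 18 for abscisic acid. They were 2 and 0 of 20 for cytokinin, 2 and 2 of 23 for gibberellin and 1 and 1 of 15 for brassinosteroid. Over all tested genes 5.77% were called higher and 4.88% lower, so the genes below are given singly and no list is read as changed. *ACO4* (Aa_G493500), an enzyme of the last step of ethylene synthesis, had 759, 931 and 699.7 CPM in 12w+5dLD stems, against 112, 178 and 118 CPM in 12w stems (log2 fold change 2.55 ± 0.45 SE, adjusted p = 0.00041), far above the 0w libraries (93.6 to 124 CPM). *ERF104*, an ethylene response factor gene, had a log2 fold change of -2.12 ± 0.51. *BG1* (Aa_G669290), a beta-glucosidase that frees abscisic acid from its glucose ester, had 3560.1, 4840.3 and 6305 CPM in 12w+5dLD stems, against 286, 1327 and 1060.2 CPM in 12w stems (log2 fold change 2.46 ± 0.58 SE, adjusted p = 0.0035), again above the 0w libraries (1999.7 to 2754 CPM). *PYL6* (Aa_G268090), an abscisic acid receptor gene, had 29.1, 16.8 and 12.8 CPM in 12w+5dLD stems, against 91.9, 88.2 and 113 CPM in 12w stems (log2 fold change -2.32 ± 0.26 SE, adjusted p = 8.9e-06). Cytokinin breakdown gene *CKX7* (Aa_G9070) had 39.4, 44.9 and 42.7 CPM in 12w+5dLD stems, against 7.88, 7.44 and 8.77 CPM in 12w stems (log2 fold change 2.40 ± 0.30 SE, adjusted p = 2e-05), and cytokinin synthesis gene *IPT3* had 35.1, 45 and 43.7 CPM in 12w+5dLD stems, against 19.4, 20 and 19.9 CPM in 12w stems (log2 fold change 1.06 ± 0.20 SE, adjusted p = 0.00076), the 2 called of 20. Among 23 gibberellin genes the growth repressor genes *RGL1* and *RGL3* differed in sign (2.37 ± 0.61 and -1.52 ± 0.21). *GA2OX2*, which inactivates gibberellin, had 5.33, 4.09 and 5.05 CPM in 12w+5dLD stems, against 0 CPM in all 3 libraries of 12w stems, at least 28.6-fold higher (adjusted p = 0.0083). *GASA1* (Aa_G618430), a gibberellin-regulated peptide gene, had 1.71, 2.58 and 1.51 CPM in 12w+5dLD stems, against 390, 38.1 and 67.2 CPM in 12w stems (log2 fold change -6.41 ± 1.27 SE, adjusted p = 0.00097), with 1 of the 12w libraries far above the other two. Of 15 brassinosteroid genes *ROT3*, a synthesis enzyme gene, was higher (1.67 ± 0.28) and *BEE1*, a response factor gene, lower (-2.81 ± 0.84). Of the calls of these hormone genes, that of *BEE1* was lost without 12w+5dLD replicate 2 (adjusted p 0.081). *RGL1* was not called in a fit of only the 6 libraries (adjusted p = 0.066).

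Aliphatic glucosinolates are sulphur-rich defence compounds of the cabbage family, and 5 of 20 tested genes of their synthesis were higher with none lower, at a list median of 0.96. *GGP1* (Aa_G603250), which works on the glutathione conjugate of the pathway, had 248, 265 and 262 CPM in 12w+5dLD stems, against 51.9, 84.9 and 85.1 CPM in 12w stems (log2 fold change 1.80 ± 0.30 SE, adjusted p = 0.00023). *IPMI2* (Aa_G175670) and *IMD1*, 2 enzymes of chain elongation, had log2 fold changes of 2.13 ± 0.57 and 1.44 ± 0.49, and *IPMI2* had 129.8, 169.9 and 170.5 CPM in 12w+5dLD stems, against 17.8, 41.2 and 48.8 CPM in 12w stems. *GSTU20* (Aa_G780410) and *GSTF11* (Aa_G111620), glutathione transferase genes of the core pathway, had 1.70 ± 0.33 and 1.83 ± 0.46. For 4 of the 5 the 12w+5dLD libraries lay below the 0w libraries, and for *IPMI2* they overlapped (151 to 216 CPM). After 16 weeks of cold the same list had a median of -0.28 and 1 higher member, and the difference of the list between the returns was not tested. *GTR2* (Aa_G409530), which imports glucosinolates into phloem, had 121, 202 and 212 CPM in 12w+5dLD stems, against 32.4, 63.5 and 34.2 CPM in 12w stems (log2 fold change 2.04 ± 0.26 SE, adjusted p = 2.4e-05), the sole call among 12 indolic glucosinolate and breakdown genes. Among the glucosinolate calls, that of *IMD1* was lost without 12w+5dLD replicate 2 or 3 or 12w replicate 1 or 3 (adjusted p 0.073 to 0.15). *IMD1* was not called in a fit of only the 6 libraries (adjusted p = 0.072). A fit of only the 6 libraries gave 8 to 9 higher members with and without the replicate number as a factor.

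Barrier genes were called in both directions. Of 12 suberin genes, whose waxy polymer seals bark and wounds, 4 were higher and 1 lower. *KCS2* (Aa_G423560), which elongates fatty acids for suberin, had 33.8, 26.5 and 25.9 CPM in 12w+5dLD stems, against 6.79, 7.18 and 0.94 CPM in 12w stems (log2 fold change 2.53 ± 0.73 SE, adjusted p = 0.014), and *ABCG6*, a transporter of suberin precursors, had 32.9, 33.4 and 35.4 CPM in 12w+5dLD stems, against 8.21, 20.7 and 7.58 CPM in 12w stems (log2 fold change 1.48 ± 0.53 SE, adjusted p = 0.044). *CYP86B1* and *MYB53* had log2 fold changes of 1.26 ± 0.44 and 1.05 ± 0.35, while *KCS20*, a close relative of *KCS2*, had 29.8, 40.6 and 38.1 CPM in 12w+5dLD stems, against 77, 77.8 and 90.2 CPM in 12w stems (log2 fold change -1.17 ± 0.11 SE, adjusted p = 1.8e-06). In wax and cutin genes 2 of 13 were lower, *MYB96*, an activator of wax synthesis, with 0 CPM in all 3 libraries of 12w+5dLD stems, against 3.34, 2.6 and 4.01 CPM in 12w stems (at least 21-fold lower, adjusted p = 0.0058) and the transporter gene *ABCG11* with 0, 1.46 and 0 CPM in 12w+5dLD stems, against 8.43, 10.8 and 10.7 CPM in 12w stems (log2 fold change -4.36 ± 1.52 SE, adjusted p = 0.042). None of 15 flavonoid and anthocyanin genes was called, although the list median was 2.10, or 2.00 with genes at 0 set to their bound. Chalcone synthase, *CHS* (Aa_G289990), had 25.2, 37.4 and 19 CPM in 12w+5dLD stems, against 1.64, 7.54 and 1.13 CPM in 12w stems (log2 fold change 2.98 ± 1.15 SE, adjusted p = 0.065), with no overlap between the groups. Of the calls of barrier genes, the following were lost on leaving out 1 library or changing the scaling, filter or test, *KCS2* without 12w replicate 3 (adjusted p 0.05), *ABCG6* without 12w+5dLD replicate 1, 2 or 3 or 12w replicate 1 or 3 (adjusted p 0.071 to 0.16), *CYP86B1* without 12w+5dLD replicate 1, 2 or 3 or 12w replicate 1 or 3 (adjusted p 0.052 to 0.14), *MYB53* without 12w+5dLD replicate 1 or 3 or 12w replicate 2 or 3 (adjusted p 0.068 to 0.14) and *ABCG11* without 12w+5dLD replicate 1 or 3 or 12w replicate 1, 2 or 3 (adjusted p 0.066 to 0.12). *KCS2*, *ABCG6*, *MYB53* and *ABCG11* were not called in a fit of only the 6 libraries (adjusted p = 0.059 to 0.14). Without 12w replicate 3 the suberin list had no higher member.

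Heat shock genes, which are markers of protein folding stress, were higher in 4 of 9 tested, all from low levels in the cold. *HSFB1* (Aa_G139460), a heat shock factor gene, had 56.9, 51.8 and 40.8 CPM in 12w+5dLD stems, against 10.4, 15.6 and 9.09 CPM in 12w stems (log2 fold change 2.09 ± 0.22 SE, adjusted p = 5.5e-06). *HSFA2* (Aa_G290430), another, had 14.3, 7.96 and 18.6 CPM in 12w+5dLD stems, against 0.329, 0.713 and 0 CPM in 12w stems (log2 fold change 5.25 ± 1.80 SE, adjusted p = 0.046). *HSP90.1* had 7.5, 0 and 5.55 CPM in 12w+5dLD stems, against 0 CPM in all 3 libraries of 12w stems (adjusted p = 0.04). Its 12w+5dLD mean was at least 25.8-fold higher, but 12w+5dLD replicate 2 was at 0 like the 12w libraries. *HSP22* had 0.724, 1.46 and 0.404 CPM in 12w+5dLD stems, against 0 CPM in all 3 libraries of 12w stems, at least 5.12-fold higher (adjusted p = 0.023). The abundant *HSP70-3* had 1165, 1682 and 1594 CPM in 12w+5dLD stems, against 1050.2, 1313 and 1034 CPM in 12w stems and was not called (log2 fold change 0.39 ± 0.23 SE, adjusted p = 0.23). The list median was 4.96, and 2.36 with genes at 0 set to their bound. Among the heat shock calls, the following were lost on leaving out 1 library or changing the scaling, filter or test, *HSFA2* without any 1 of the 6 libraries (adjusted p 0.063 to 0.13), *HSP90.1* without 12w+5dLD replicate 1 or 3 or 12w replicate 1, 2 or 3 (adjusted p 0.07 to 0.1) and *HSP22* without 12w+5dLD replicate 2 or 12w replicate 1, 2 or 3 (adjusted p 0.053 to 0.065). Of 8 senescence genes *PAO* and *SGR1*, which act in chlorophyll breakdown, were higher (1.28 ± 0.26 and 1.15 ± 0.29), and of 12 salicylic acid and defence genes *ICS1*, the salicylic acid synthesis gene, had 16.6, 23.1 and 23 CPM in 12w+5dLD stems, against 7.99, 7.13 and 8.21 CPM in 12w stems (log2 fold change 1.43 ± 0.27 SE, adjusted p = 0.0006). Of the calls of these 3 genes, that of *SGR1* was lost without 12w replicate 3 (log2 fold change 0.94).

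Few genes of cell division were called. Of 36 tested genes of DNA replication and cell division 3 were higher and none lower, with a median of 0.61. *TSO2* (Aa_G120840), a ribonucleotide reductase subunit, had 26.4, 33.6 and 50.9 CPM in 12w+5dLD stems, against 11.5, 13.3 and 15 CPM in 12w stems (log2 fold change 1.48 ± 0.35 SE, adjusted p = 0.0035). *CYCD3;2* (Aa_G165790), a cyclin of cycle entry, had 17, 14.7 and 12.1 CPM in 12w+5dLD stems, against 5.91, 6.21 and 4.01 CPM in 12w stems (log2 fold change 1.44 ± 0.29 SE, adjusted p = 0.00099). *CYCB2;2*, a mitotic cyclin, had 3.26, 1.96 and 0.555 CPM in 12w+5dLD stems, against 0 CPM in all 3 libraries of 12w stems, at least 11.4-fold higher (adjusted p = 0.00067). Among 11 ribosome biogenesis genes *NUC1* (Aa_G273780), the nucleolin gene, was the sole call, with 228, 249 and 169 CPM in 12w+5dLD stems, against 560.2, 493 and 414 CPM in 12w stems (log2 fold change -1.18 ± 0.16 SE, adjusted p = 3.5e-05).

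The stems of this study form adventitious roots after long cold, and 6 of 22 tested adventitious and lateral root genes were lower after the return, none higher. Part of this list was taken from genes that the study picked on these samples, so its count is not independent evidence of a direction. *PMT5* (Aa_G429460), a polyol and sugar transporter gene, had 28.1, 46.6 and 42 CPM in 12w+5dLD stems, against 89.9, 137 and 134 CPM in 12w stems (log2 fold change -1.63 ± 0.28 SE, adjusted p = 0.00027). *RAV1* (Aa_G164300), a B3-type growth regulator, had 62.6, 60.7 and 54.1 CPM in 12w+5dLD stems, against 152, 126 and 169 CPM in 12w stems (log2 fold change -1.33 ± 0.21 SE, adjusted p = 0.00014). *NRP2*, a histone chaperone gene, had 84.5, 73.6 and 71.6 CPM in 12w+5dLD stems, against 89.4, 202 and 207 CPM in 12w stems (log2 fold change -1.12 ± 0.24 SE, adjusted p = 0.0017), and *TCTP1*, a growth regulator gene, had 1172, 1184 and 869 CPM in 12w+5dLD stems, against 2869, 1209 and 2624 CPM in 12w stems (log2 fold change -1.06 ± 0.33 SE, adjusted p = 0.023). *PLT7* (Aa_G81500), a factor of root and shoot founder cells, had 0 CPM in all 3 libraries of 12w+5dLD stems, against 7.83, 9.07 and 7.21 CPM in 12w stems, at least 50.8-fold lower (adjusted p = 0.03), and it was at 0 in all 0w libraries too. *ANR1*, a MADS-box gene of lateral root growth, had 0 CPM in all 3 libraries of 12w+5dLD stems, against 2.3, 2.8 and 0.501 CPM in 12w stems, at least 11.8-fold lower (adjusted p = 0.00021). *CUC1*, a boundary gene, had 26.5, 26.6 and 24 CPM in 12w+5dLD stems, against 31.7, 34.8 and 33.5 CPM in 12w stems and was not called (log2 fold change -0.37 ± 0.14 SE, adjusted p = 0.051), nor was *PUB9*, at 173, 182 and 165 CPM in 12w+5dLD stems, against 281, 263 and 252 CPM in 12w stems (log2 fold change -0.62 ± 0.10 SE, adjusted p = 0.00014). Among the calls of root genes, the following were lost on leaving out 1 library or changing the scaling, filter or test, *NRP2* without 12w replicate 2 or 3 (log2 fold change -0.94 to -0.92), *TCTP1* without 12w+5dLD replicate 3 or 12w replicate 1 or 3 (adjusted p 0.087 to 0.12) and *PLT7* without 12w+5dLD replicate 1, 2 or 3 or 12w replicate 1 (adjusted p 0.052 to 0.082). *NRP2* and *TCTP1* were not called in a fit of only the 6 libraries (adjusted p = 0.069 to 0.09). The list had 3 lower members in a fit of only the 6 libraries. None of the 5 root hair and root cap markers was found in the table.

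Some of the largest changes lay outside the lists, and the genes of this paragraph were chosen after their values were seen. *LEA14* (Aa_G105830), a late embryogenesis abundant protein gene, had 7.34, 6.44 and 10.5 CPM in 12w+5dLD stems, against 282, 289 and 308 CPM in 12w stems (log2 fold change -5.18 ± 0.74 SE, adjusted p = 5.8e-05). *DRM2* (Aa_G438760), a dormancy-associated gene, had 26.7, 25.9 and 22.9 CPM in 12w+5dLD stems, against 824, 800.2 and 755 CPM in 12w stems (log2 fold change -4.98 ± 0.79 SE, adjusted p = 0.00016). *BETA-VPE* (Aa_G262880), a vacuolar processing protease gene, had 0, 1.18 and 0 CPM in 12w+5dLD stems, against 185, 244 and 224 CPM in 12w stems (log2 fold change -9.13 ± 2.32 SE, adjusted p = 0.0062), and *GRP3* (Aa_G152480), a glycine-rich wall protein gene, had 0, 0.168 and 0.0505 CPM in 12w+5dLD stems, against 21.9, 96.8 and 40.2 CPM in 12w stems (log2 fold change -9.41 ± 1.46 SE, adjusted p = 0.00013). For *LEA14*, *DRM2* and *GRP3* the 12w+5dLD libraries also lay below the 0w libraries. In the other direction *ACA1* (Aa_G555620), a carbonic anhydrase gene, had 41.9, 59.2 and 92.2 CPM in 12w+5dLD stems, against 0.548, 0 and 0 CPM in 12w stems (log2 fold change 8.40 ± 2.03 SE, adjusted p = 0.005). *ARGOS-LIKE* (Aa_G100480), which promotes cell expansion in *A. thaliana*, had 11.9, 9.02 and 7.47 CPM in 12w+5dLD stems, against 0.219, 0.408 and 0.125 CPM in 12w stems (log2 fold change 5.19 ± 0.83 SE, adjusted p = 0.00016). The methionine synthase genes *MS1* (Aa_G70380) and *MS2* (Aa_G438140) had log2 fold changes of 1.29 ± 0.21 and 1.60 ± 0.22, and *MS1* had 1522, 2640.4 and 2622 CPM in 12w+5dLD stems, against 812, 1070.2 and 889.7 CPM in 12w stems. *TPPG* (Aa_G42780), a trehalose phosphate phosphatase gene, had 11, 13.5 and 13.2 CPM in 12w+5dLD stems, against 0 CPM in all 3 libraries of 12w stems, at least 74.6-fold higher (adjusted p = 4.8e-09).

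By size alone, the 12 leading genes with an *A. thaliana* locus in each direction were all at 0 in every library of the other group. Those higher in 12w+5dLD stems were at least 89.6-fold to at least 477-fold higher, led by the homolog of AT1G64430 (Aa_G270080) with 93.2, 76.6 and 70.8 CPM in 12w+5dLD stems, against 0 CPM in all 3 libraries of 12w stems (adjusted p = 0.0037), and those lower were at least 55.7-fold to at least 1190-fold lower, led by *COR27*. *JMJD5* (Aa_G133240), a histone demethylase gene tied to the clock, was the third of the lower ones by fold, with 0 CPM in all 3 libraries of 12w+5dLD stems, against 40.3, 38.4 and 34.3 CPM in 12w stems, at least 238-fold lower (adjusted p = 0.0049). The homolog of AT1G18870 (Aa_G497100) had 38.3, 58.6 and 49.6 CPM in 12w+5dLD stems, against 0 CPM in all 3 libraries of 12w stems, at least 290-fold higher (adjusted p = 0.0044). Of the homolog of AT5G57160 (Aa_G69020) the table lists 0 CPM in all 3 libraries of 12w+5dLD stems, against 85.2, 91.5 and 65 CPM in 12w stems, with an adjusted p of 0.048, and it was at 0 before cold as well. For some of these leading genes, zeros also stood beside high values within other groups. The homolog of AT1G64430 had 71, 37 and 0 CPM in 21w+5dLD stems. That of AT3G15390 had 0, 38.3 and 35.4 CPM in 16w stems, and that of AT5G57160 had 91.4, 0 and 0 CPM there. Whether zeros of this kind arose in the counting was not tested, and the bounds take them as listed. In all, 165 called genes had 0 counts throughout a group, 100 of them in 12w and 65 in 12w+5dLD. For 10 genes a 0 in every 12w library, and for 11 genes a 0 in every 12w+5dLD library, stood against a mean of at least 5 CPM in all 8 other groups, and 10 of these genes were called. Of the calls of these leading genes, the following were lost on leaving out 1 library or changing the scaling, filter or test, AT1G15125 without any 1 of the 6 libraries (adjusted p 0.06 to 0.11), AT2G20815 without 12w replicate 1, 2 or 3 (adjusted p 0.056 to 0.064), AT5G57160 without any 1 of the 6 libraries or 21w+5dLD replicate 3 or with no filter (adjusted p 0.053 to 0.12), AT5G12210 without 12w replicate 1, 2 or 3 (adjusted p 0.056 to 0.064), AT3G15390 without 12w replicate 1, 2 or 3 (adjusted p 0.077 to 0.087), AT1G72140 without 12w replicate 1, 2 or 3 (adjusted p 0.063 to 0.071), AT5G43680 without 12w+5dLD replicate 1, 2 or 3 (adjusted p 0.07 to 0.078), AT2G11810 without 12w+5dLD replicate 1, 2 or 3 (adjusted p 0.062 to 0.069) and AT3G02610 without 12w+5dLD replicate 1, 2 or 3 (adjusted p 0.065 to 0.072).

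The return was set against the returns from 16 and 21 weeks, which share no library with it. After 16 weeks 1321 genes were higher (6.83%) and 881 lower (4.56%). Of the higher genes 640 were called after both, 57.3% of those after 12 weeks and 48.4% of those after 16 weeks. Of the lower genes 512 were called after both, 54.3% of those after 12 weeks and 58.1% of those after 16 weeks, and 1 gene was called in opposite directions. The sign after 16 weeks was the same for 95.2% of the genes called after 12 weeks and for 77% of all tested genes. *RD29A* had a log2 fold change of -2.48 after 12 weeks and -2.14 after 16 weeks, *TOC1* -3.57 and -3.90, *FLA11* 3.39 and 2.77 and *PAL1* 2.21 and 1.96. The photosynthesis list had 12 higher and 1 lower member with a median of 0.93 after 12 weeks, against 2 higher and 2 lower with a median of 0.26 after 16 weeks, and the difference of the list between the returns was not tested. Across all tested genes, which are not independent replicates, the log2 fold changes after 12 and 16 weeks had a Pearson correlation of 0.436. Tested directly, the 2 responses differed at 4 of 19337 genes (0.0207%), 2 in each direction, with 1762 genes at an unadjusted p under 0.05, and DESeq2 gave 171 and 287. All 4 rest on a group with all its libraries at or near 0.

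**Figure D5:**
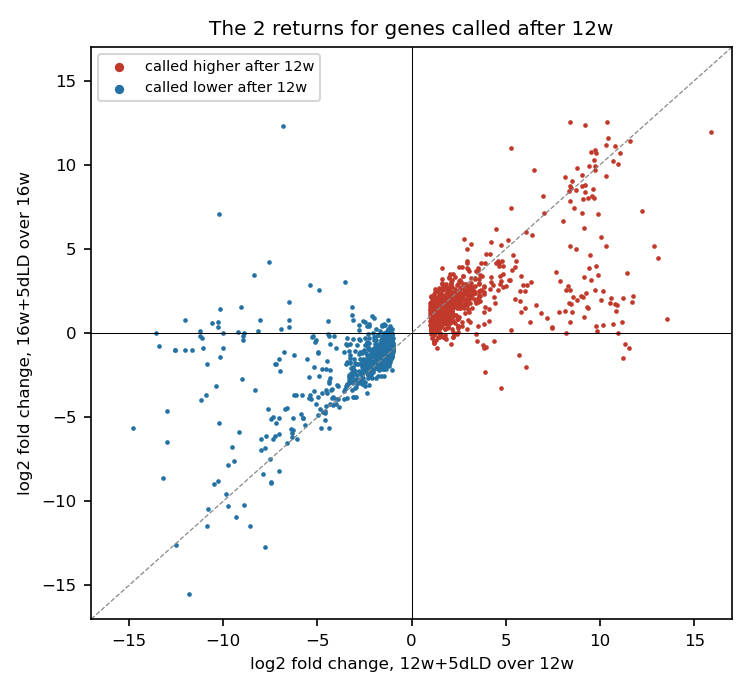
Each point is a gene called after 12 weeks, with its log2 fold change 12w+5dLD over 12w on the x axis and 16w+5dLD over 16w on the y axis, red for the 1116 higher and blue for the 943 lower genes. Most points lie in the quadrants of equal sign, and the dashed line marks equal change.

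After 21 weeks of cold the return was called at fewer genes, 42 higher (0.217%) and 34 lower (0.176%). These counts include 21w+5dLD replicate 3, a library that stood apart from its group, and were not recounted without it. The response after 12 weeks was above that after 21 weeks at 128 genes and below it at 204, together 1.72% of those tested, and 40 list members were among them. *CBF3* had log2 fold changes of -5.22 after 12 weeks and -0.03 after 21 weeks, *COR413-PM1* of -1.15 and 0.25, and *P5CS2* of -1.74 and -0.09. The differences were -5.19, -1.41 and -1.66, and they were called also without 21w+5dLD replicate 3 and in a fit of only the 12 libraries of both returns. *ADH1* had -3.33 after 12 weeks and -0.68 after 21 weeks, *BAM3* -2.71 and -0.81, and *PAL1* 2.21 and 0.64, and these differences were called in the fit of all 27 libraries and not in that of the 12 (adjusted p = 0.12, 0.19 and 0.2). For *ADH1*, *BAM3* and *PAL1* the differences were -2.65, -1.90 and 1.57. They shrank to -2.14, -1.32 and 1.31 without 21w+5dLD replicate 3, where they were still called. One library, 21w+5dLD replicate 3, stood apart from its group, with correlations of 0.852 to 0.858 against 0.898 between the other two. Without it the difference was called at 125 and 129 genes, 176 of them shared with the 332, and 28 of the 40 list members remained called. It was called at 46 and 93 genes without 12w replicate 1, at 87 and 131 without 12w replicate 3, at 53 and 101 without 12w+5dLD replicate 2, at 53 and 113 without 12w+5dLD replicate 3, at 65 and 95 without 21w replicate 1, at 86 and 121 without 21w replicate 2 and at 190 and 332 without 21w+5dLD replicate 1. In a fit of only the 12 libraries of both returns it was called at 13 and 9 genes. Of the 40 list members only 3 were called in that fit, *CBF3*, *COR413-PM1* and *P5CS2*.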

How the data were processed

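RNA was sequenced from 27 main-stem libraries in 9 groups of 3, each described as a biological replicate. The authors mapped the reads with HISAT2 and derived gene counts from StringTie coverage with its prepDE script, so the deposited counts are estimates written as whole numbers. No version of these tools and no genome build is given in the sources used here. The totals of the 6 libraries compared were 16654945 to 20126316 counts. The deposited comparison tables hold the authors' own log2 fold changes and adjusted p-values and were not used. No column of per-sample values was left unassigned.

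Counts were fitted with edgeR 4.0.16 (limma 3.58.1, R 4.3.3) as 9 group means over all 27 libraries, after filterByExpr and TMM scaling, with 18 residual degrees of freedom, and 19337 of 21641 genes were tested. Each response was a contrast, and the difference of 2 responses was an interaction contrast. CPM are the deposited counts scaled to a common library total with TMM factors. Gene names come from the *A. thaliana* homolog, which the table gives for 15954 genes. Where 1 group was at 0, the fold was the mean of the other group over a floor of 3 counts per library. The members and lists were chosen with earlier results of these data known. By rule the text names up to 4 genes per list and direction and 12 over all genes per direction, by fold. These had a mean of at least 5 CPM in the higher group and no overlap between the groups compared. For each difference the rule took up to 6 genes per direction by size. These had a mean of at least 5 CPM in the highest group, and overlap was not a condition. Further genes were named after their values were seen, among them *RD29A*, *GRP8*, *TOC1*, *C4H*, *COMT1*, the remaining called list members, members given as not called and the genes said to lie outside the lists. The alternatives were DESeq2 1.42.0, other scalings, filters and thresholds, fewer libraries in the fit, the replicate number as a factor and each library left out. The fit was also run on simulated counts, with changes planted only in genes above a minimum level and with low spread. That run does not cover genes at 0 throughout a group. One called list member is not reported here. P-values measure the spread between libraries of pooled plants.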

Additional observations from a re-analysis of the deposited data

Results flagged for a closer look

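The response after 12 weeks differed from that after 16 weeks at 2 genes above and 2 below, and from that after 21 weeks at 128 above and 204 below, by a test of the difference itself in the edgeR fit. Single genes follow as the difference in log2 fold change, 12 weeks minus the other return, and each of them has a group at or near 0 in all of its libraries, where the fitted size depends on the prior count.

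Against 16 weeks, *GPAT6* (Aa_G378850) differed by -11.07, with 15.4, 11.9 and 11.6 CPM in 12w+5dLD stems, against 10.2, 12.6 and 9.46 CPM in 12w stems, and with 19.4, 18.6 and 13.3 CPM in 16w+5dLD stems, against 0 CPM in all 3 libraries of 16w stems. The 16w group alone was low. *TPPG* (Aa_G42780) differed by 9.21, with 11, 13.5 and 13.2 CPM in 12w+5dLD stems, against 0 CPM in all 3 libraries of 12w stems, and with 15.7, 16.5 and 20.6 CPM in 16w+5dLD stems, against 6.66, 5.74 and 4.06 CPM in 16w stems. The homolog of AT5G07800 (Aa_G76440) differed by 8.06, with 2.28, 9.08 and 9.64 CPM in 12w+5dLD stems, against 0 CPM in all 3 libraries of 12w stems, and with 14.4, 14.1 and 21.3 CPM in 16w+5dLD stems, against 5.18, 3.57 and 3.8 CPM in 16w stems. The homolog of AT2G42900 (Aa_G488910) differed by -19.14, but its libraries scattered within groups, with 0.207, 0.168 and 0.202 CPM in 12w+5dLD stems, against 0.164, 46.7 and 20.6 CPM in 12w stems, and with 33.2, 68.2 and 0.14 CPM in 16w+5dLD stems, against 0 CPM in all 3 libraries of 16w stems.

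Against 21 weeks, *COR27* (Aa_G595780) differed by -13.85, with 0 CPM in all 3 libraries of 12w+5dLD stems, against 233, 140.4 and 191 CPM in 12w stems, and with 0, 0 and 113 CPM in 21w+5dLD stems, against 42.9, 66.1 and 108 CPM in 21w stems. Without 21w+5dLD replicate 3, the library that stood apart, the difference was -1.37, with an adjusted p of 1. The homologs of AT2G02040 (Aa_G186470, 12.92) and AT1G79690 (Aa_G293680, 14.49) were at 0 in all 3 libraries of 21w+5dLD stems and at 34.2 CPM or more in the libraries of 21w stems. Higher from a 12w group at 0 were the homologs of AT2G34030 (Aa_G146020, 10.96), AT1G54280 (Aa_G184630, 11.75) and AT1G52040 (Aa_G364650, 13.58), and *TPPG* (10.10). Lower to a 12w+5dLD group at 0 were *XTH20* (Aa_G156090, -10.77) and the homolog of AT3G52090 (Aa_G300290, -9.92). The homolog of AT1G47570 (Aa_G758480, -19.29) had 0 CPM in all 3 libraries of 12w+5dLD stems, against 7.12, 0 and 5.58 CPM in 12w stems, and 5.19, 6.44 and 8.27 CPM in 21w+5dLD stems, against 0 CPM in all 3 libraries of 21w stems. The homolog of AT2G42900 (Aa_G488910) differed by -11.02 with the scatter given above, and that of AT2G35060 (Aa_G263930) by -8.42, with 0 CPM in all 3 libraries of 21w stems. The differences of *GPAT6*, *TPPG* and the homologs of AT2G02040, AT1G79690 and AT2G34030 were called under every alternative run, that of AT5G07800 was lost in the fit of only 12 libraries, that of AT1G54280 there and without 12w replicate 1, and the others named here there and on leaving out any 1 of several libraries.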

How the results depend on the processing

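The counts of 1116 higher and 943 lower genes stayed within 1.5 times under DESeq2 (1574 and 1134), upper-quartile scaling (1222 and 836), the size factors of DESeq2 (1163 and 892), no filter (1121 and 901), a filter of at least 50 counts in 3 libraries (1109 and 882), without genes with shared counts (1016 and 845), in a fit of only the 6 libraries (1094 and 867) and, as an alternative added after seeing the data, without genes at 0 in all libraries of either group (1016 and 878). An adjusted p under 0.05 alone gave 2491 and 2611. Leaving out in turn each of the 6 libraries compared, and 21w+5dLD replicate 3, gave 883 to 1201 higher and 765 to 980 lower. The counts were lowest without 12w replicate 1 and highest without 21w+5dLD replicate 3. Upper-quartile scaling shifted the median of all genes to 0.06, and the share of higher genes among those called ran from 53.3% to 59.4% over all settings run other than the p threshold alone (48.8%). Of the 208 genes named or called in a list, 112 were called under every alternative that gave a value (14 to 18 alternatives a gene) and 96 lost the call under at least 1, 26 of them in the fit of only the 6 libraries and 2 under DESeq2.

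The labels do not say whether equal replicate numbers pair the libraries. The deviations of same-numbered 12w+5dLD and 12w libraries correlated at only 0.095, 0.066 and 0.037 over 12815 genes, although each correlated best with its own number. A pairing that touches only some genes was not tested. With the replicate block the counts were 1080 and 901, and in the fit of only the 6 libraries with the block 699 and 606. The block in the fit of all libraries left 7 of the 208 genes uncalled, *ABCG11*, *GLN1;2*, *HSFA2*, *HSP90.1*, *JAZ10*, *RBCS3B* and the homolog of AT5G57160 (adjusted p = 0.052 to 0.071). In the fit of only the 6 libraries with the block 70 were uncalled, among them *FKF1*, *BOA*, *FUL*, *SVP*, *GASA1*, *GA2OX2*, *ROT3* and *BEE1*, and the circadian clock list had 6 lower members, flowering 1, secondary wall 8 higher and heat shock 1 higher. The block gave 2 above and 1 below for the difference from 16 weeks, and 112 and 188 for that from 21 weeks.

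The difference from 16 weeks was called at 2 and 2 genes, at 171 and 287 under DESeq2, at 9 and 16 without 21w+5dLD replicate 3 and at 9 and 9 in a fit of only 12 libraries. It was called at 2 to 12 and 2 to 16 on leaving out each library of the returns compared or 21w+5dLD replicate 3. That from 21 weeks (128 and 204) gave 211 and 375 by adjusted p alone, 515 and 542 under DESeq2, 125 and 129 without 21w+5dLD replicate 3, 13 and 9 in a fit of only 12 libraries and 46 to 190 and 93 to 332 on leaving out each library of the returns compared. The causes of these moves were not tested. At 16654945 to 20126316 counts a library, 3 counts correspond to about 0.158 CPM in 12w+5dLD and 0.168 CPM in 12w stems, and lower levels cannot be told from 0.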
